A study of Bos taurus and Ovis aries and Capra hircus with 18 samples.

Results

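The 40 nuclear genes described here encode subunits and assembly factors of respiratory complex I, the NADH dehydrogenase of the inner mitochondrial membrane. They were taken from a fixed list of gene symbols. All 40 were found in the cattle gene models, by position, among 27607 cattle genes. Partners were sought by exon lengths, strand and gene order among 26478 sheep and 27271 goat genes, and 35 of the 40 were matched in all 3 species. NDUFA1 and NDUFB11 had a partner in goat only, NDUFB1 and NDUFB3 in sheep only, and NDUFB7 was matched in neither.

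The study compared brain and muscle of adult cattle (Bos taurus), sheep and goat by RNA sequencing of poly(A)-selected RNA from frozen tissue. There were 6 groups, brain and muscle of each species, with 3 libraries per group lettered A, B and C, and 18 libraries in all. No treatment or genetic change is named for any group. No source used here gives the brain region, the muscle, or the breed, sex and exact age of the animals. The labels do not say whether the letters stand for separate animals, so the p-values measure only the spread between these libraries, which may be technical.

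Complex I takes electrons from NADH and passes them along a flavin and a row of iron-sulfur clusters in its matrix arm to ubiquinone, and its membrane arm pumps protons. The core subunits that carry out the reaction are shared with bacteria, and those of the membrane arm are encoded in the mitochondrial genome. Accessory subunits surround this core, and assembly factors help to build the complex without staying in it. Muscle fibres and neurons both depend on oxidative phosphorylation.

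The deposited gene models of the same gene differed much in length between species. The count files give each model's exonic length. Among the 35 matched genes, the longest model was at least 1.5 times the shortest in 27, at least 2 times in 19, at least 3 times in 10 and at least 5 times in 4. Those 4 were NDUFA12 (950 bases in cattle, 540 in sheep, 5017 in goat), NDUFS5 (1457, 506 and 4195 bases), NDUFB8 (990, 721 and 4006 bases) and NDUFV3 (2533, 1983 and 489 bases). The goat model was the shortest in 24 of the 35 genes and the longest in 6, while the cattle model was the longest in 19 and the shortest in 0. The median model length was 1095 bases in cattle, 721 in sheep and 540 in goat. Between 3 and 5 times, in the same order of species, lay NDUFC2 (1717, 633 and 363 bases), NDUFA7 (1553, 467 and 381), NDUFS4 (1992, 674 and 528), NDUFA8 (857, 783 and 2914), NDUFC1 (757, 474 and 231) and NDUFA10 (1478, 1438 and 4426). Between 2 and 3 times lay NDUFAF1 (3122, 1064 and 1064 bases), NDUFA13 (1267, 489 and 435), NDUFA3 (358, 690 and 255), NDUFS8 (1675, 746 and 639), NDUFA11 (1099, 564 and 426), NDUFB2 (522, 827 and 327), NDUFA5 (814, 369 and 357), NDUFB10 (1211, 663 and 531) and NDUFS7 (1470, 720 and 768). Between 1.5 and 2 times lay NDUFB5 (1119, 662 and 570 bases), NDUFB6 (698, 748 and 387), NDUFB9 (880, 1039 and 540), NDUFV2 (1095, 1429 and 750), NDUFA2 (550, 567 and 300), NDUFAB1 (666, 841 and 479), NDUFV1 (2664, 1571 and 2561) and NDUFS6 (1291, 765 and 1020). Of the genes with 1 partner, NDUFB11 (1955 bases in cattle, 465 in goat), NDUFA1 (387 in cattle, 213 in goat) and NDUFB3 (484 in cattle, 828 in sheep) also passed 1.5 times. A comparison of tissues within a species uses the same model on both sides, so length differences between species do not enter it. A comparison of species depends on them. Within a species a single library can still shift with model length, as given below for sheep brain C.

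The genes also share some exons with other gene models: 10 of the 40 did so in at least 1 species, mostly with a model on the opposite strand. The largest share was 38.0% of the 550 exonic bases of cattle NDUFA2. Strandedness of the counts is not given in the sources used here, so reads in such stretches cannot be told apart. The sheep model matched to NDUFB3 held 11 to 41 counts per library and shared 59 of its 828 exonic bases with another sheep model on the same strand. The sheep values of NDUFB3 are therefore uncertain, and NDUFB3 is named in no sheep result below. It remains in the sheep counts and medians as a gene not called (log2 0.44 ± 0.56, edgeR adjusted p = 0.541).

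Library totals ran from 20730803 to 58514630 counts. Levels are given as CPM, the counts per 1000000 counts of the library, on libraries scaled with the trimmed mean of M values (TMM) within each species. Marker genes went with the tissue labels. The summed level of 10 neuronal genes was 3322 to 10060 CPM in brain libraries and 5.53 to 12.0 in muscle libraries. The summed level of 8 muscle fibre genes was 125800 to 239100 CPM in muscle and 30.7 to 78.2 in brain. These 8 genes took 10 to 17.2% of all counts in muscle libraries. Some libraries stood apart from their group. Sheep brain C had a rank correlation over genes of 0.939 and 0.940 with the other sheep brain libraries, which had 0.980 with each other. In goat muscle the correlations with library C were 0.962 and 0.959, against 0.974 between A and B. In goat brain A 5 oligodendrocyte genes summed to 25860 CPM, against 5497 and 5141 in B and C, and that library had the lowest sum of nuclear complex I genes in goat brain, 1878 CPM. The part of oligodendrocyte RNA in the goat brain levels was not tested.

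Nuclear complex I transcripts were more abundant in muscle than in brain in all 3 species. The summed level of the 35 matched genes was 1453, 1557 and 1400 CPM in cattle brain libraries A, B and C and 4249, 3054 and 4788 CPM in cattle muscle. In sheep it was 1774, 1962 and 3815 CPM in brain and 7373, 6314 and 7453 CPM in muscle. In goat it was 1878, 2508 and 2136 CPM in brain and 7419, 8416 and 11140 CPM in muscle. The muscle libraries lay above the brain libraries of their species without overlap in each case. Sheep brain C stood apart from the other sheep brain libraries, and goat muscle C was the highest library of its species. In a tissue, fewer cells rich in mitochondria and less RNA of these genes per cell cannot be told apart.

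**Figure D1:**
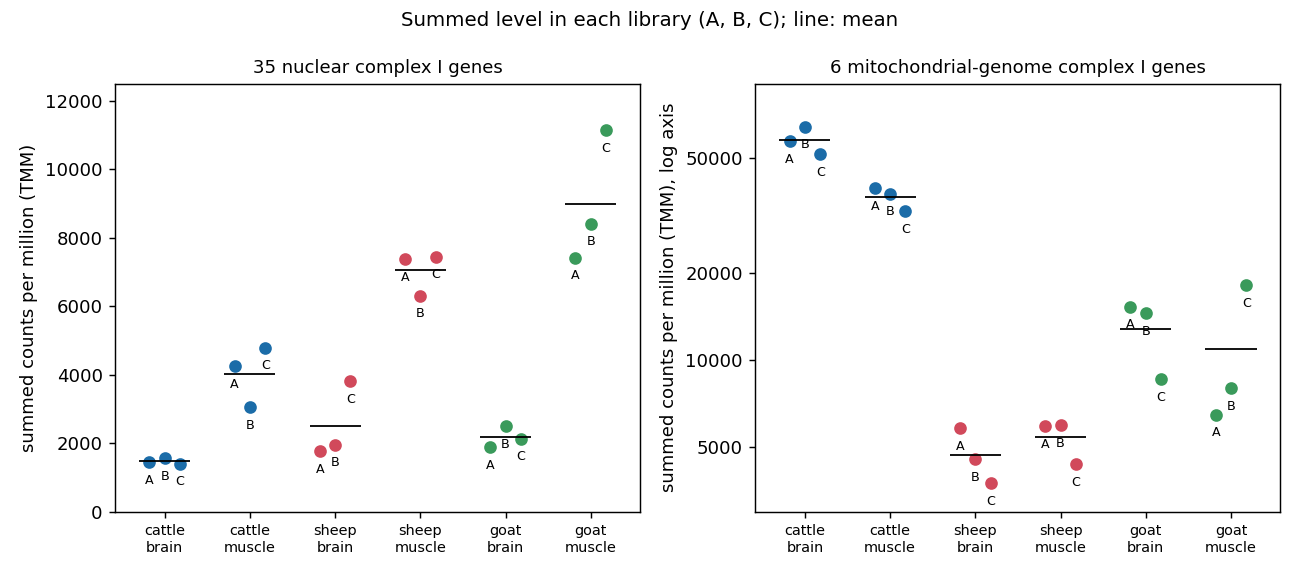
Summed CPM (TMM-scaled within species) of 35 nuclear complex I genes (left, linear axis) and of 6 complex I genes of the mitochondrial genome (right, log axis) in each of the 18 libraries, lettered A to C, with the group mean as a line. The nuclear sums are higher in muscle in each species, with sheep brain C (3815) apart from sheep brain A and B; the mitochondrial sums are not higher in cattle muscle than in cattle brain.

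Each gene was tested in each species with edgeR's quasi-likelihood test over all genes that passed the count filter. A gene was called where the Benjamini-Hochberg adjusted p was below 0.05 and the difference was at least 2-fold. In cattle 34 of 40 genes were called higher in muscle and 0 higher in brain, against 25.3% and 33.9% of all 16428 genes tested. In sheep 20 of 37 were called higher in muscle and 0 higher in brain, against 19.1% and 28.6% of 15616 genes. In goat 35 of 37 were called higher in muscle and 0 higher in brain, against 23.2% and 31.4% of 15825 genes. The median log2 difference, muscle minus brain, was 1.47 in cattle, 1.31 in sheep and 2.07 in goat, where the medians of all genes tested were -0.09, -0.17 and -0.12. All 3 muscle libraries exceeded all 3 brain libraries for 38 of 40 genes in cattle, 26 of 37 in sheep and 36 of 37 in goat, against 36.8%, 31.2% and 29.6% of all genes tested. The reverse order was found for 0 of the complex I genes in each species, against 42.6%, 34.9% and 38.5% of all genes. In 1 model over the 35 matched genes and all 18 libraries, 30 were called higher in muscle and 0 higher in brain, against 22.1% and 32.0% of 13083 genes, and the median was 1.67. By the adjusted p alone, 38 genes passed as higher in muscle in cattle, 20 in sheep, 36 in goat and 34 over the species, against 35.1%, 20.1%, 26.8% and 31.7% of all genes. Of the 35, 19 were called in all 3 species, 10 in 2, 5 in 1 and NDUFA3 in 0.

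The scaling of the libraries bears on these counts. With library totals in place of TMM the median of all genes moved to -0.76 for cattle, -1.11 for sheep and -0.86 for goat, and that of the complex I genes to 0.81, 0.41 and 1.31. The complex I genes thus stayed above the median of all genes, but the sign turned for some: 37 of 40 were higher in muscle in cattle, 22 of 37 in sheep and 36 of 37 in goat. With library totals 13 genes were called in cattle, 11 in sheep, 29 in goat and 12 over the species, against 14.2%, 9.06%, 12.8% and 10.9% of all genes called higher in muscle.

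**Figure D2:**
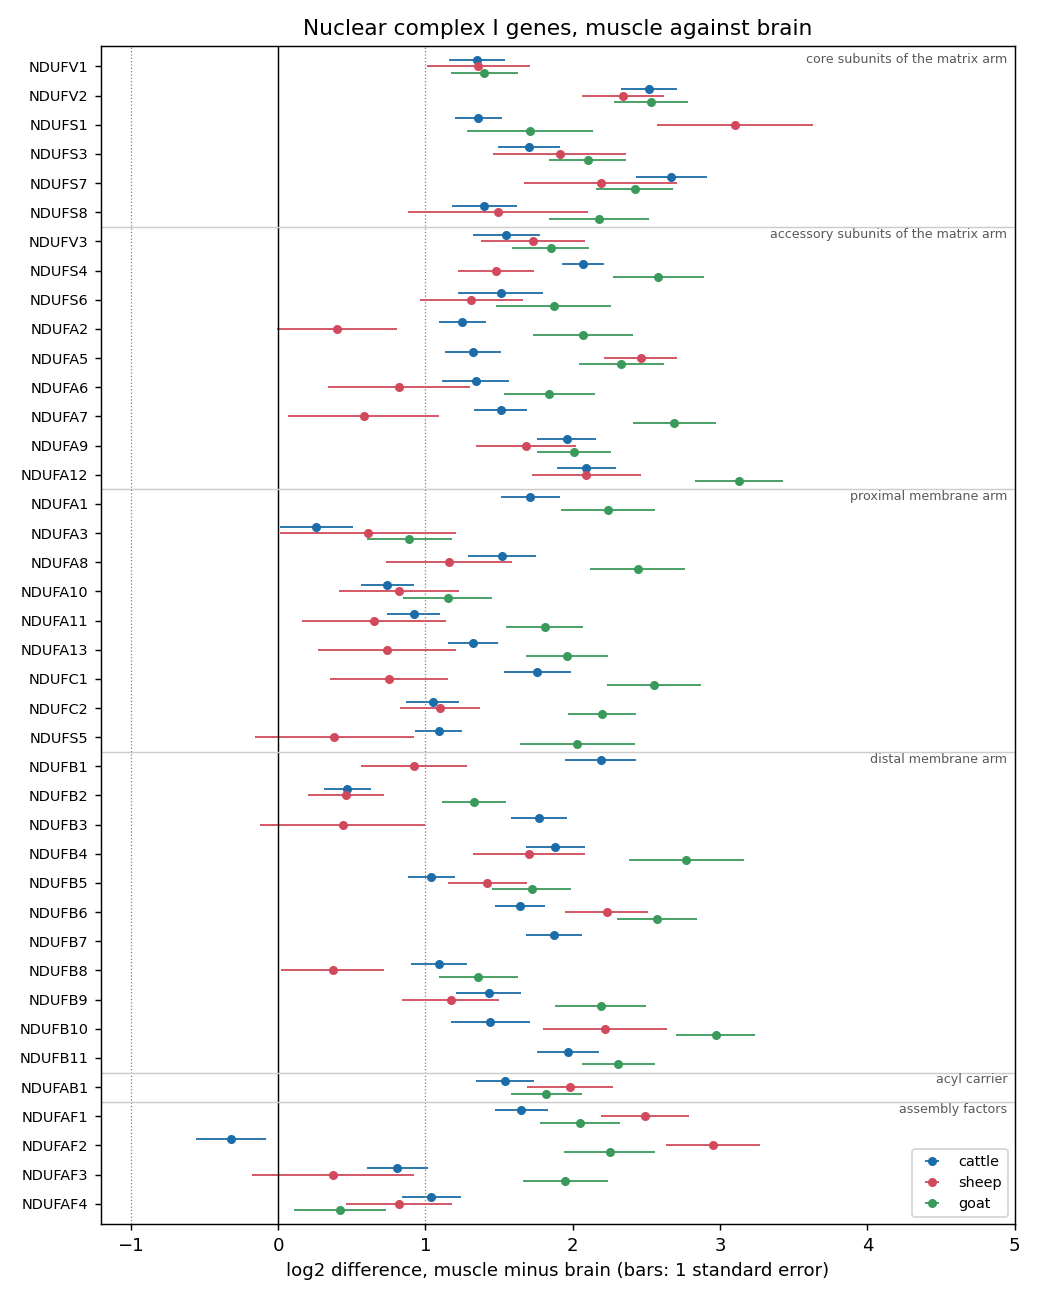
Log2 difference of muscle minus brain for each nuclear complex I gene in cattle, sheep and goat, from edgeR, with bars of 1 standard error and dotted lines at the 2-fold limit; genes are ordered by role and a missing point is a gene without a partner. Only cattle NDUFAF2 lies left of 0, and sheep bars are the widest for many genes.

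The sheep count depended on brain C. Of the 37 complex I genes, 30 were higher in sheep brain C than in both other sheep brain libraries, with a median log2 difference of 0.96, while 45.5% of all genes were. Without this library 31 of 37 genes were called higher in muscle, the median was 1.65, and 24.3% of 16154 genes tested were called higher in muscle. All muscle libraries then exceeded the remaining brain libraries for 36 of 37 genes. The share of all genes in that order was not computed, and fewer libraries make the order easier to meet. That count is therefore not read as a result about complex I. In the same library, genes with models under 1000 bases had a median log2 difference of 0.28 from the other sheep brain libraries and genes with models over 3000 bases had -0.55. Of the 37 sheep models of complex I genes, 29 were under 1000 bases. The neuronal genes summed to 3322 CPM in sheep brain C, against 5401 and 4475 in A and B, and 5 oligodendrocyte genes to 4039, against 3502 and 3433; the 8 muscle fibre genes were at 71.01 CPM there, against 42.88 and 30.7. The part of model length and of cell make-up in the sheep result was not tested. Leaving goat muscle C out gave 35 calls among the 37 goat genes, with a median of 1.89, against 24.1% of all genes.

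The core subunits of the matrix arm include those that bind the flavin and the iron-sulfur clusters. Over the species they had the highest median difference of the role groups, but in cattle and goat the distal membrane arm was higher. The counts of the core subunits and the following role groups stand against 25.3% of all genes called higher in muscle in cattle, 19.1% in sheep and 23.2% in goat. All 6 genes were called higher in muscle in cattle and goat and 5 of 6 in sheep, with medians of 1.55 in cattle, 2.14 in goat and 2.05 in sheep. Over the species 6 of 6 were called, with a median of 1.94. NDUFV2, an iron-sulfur protein next to the flavin site, had the largest difference of the group over the species, though NDUFS7 had a larger one in cattle and NDUFS1 in sheep. In cattle it was at 62.1, 60.4 and 61.5 CPM in brain and 405, 269 and 379 CPM in muscle. In sheep it was at 104, 104 and 75.1 CPM in brain and 502, 406 and 527 CPM in muscle. In goat it was at 103, 115 and 95.8 CPM in brain and 525, 554 and 733 CPM in muscle. The tissues were far apart in every species, and unlike most of the genes NDUFV2 was lowest in sheep brain C. Over the species its log2 difference was 2.44 ± 0.15 (SE), with an edgeR adjusted p of 2.68e-11.

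NDUFV1, which holds the flavin and the NADH site, had the smallest difference among the core subunits. Its cattle levels were 78.1, 84.1 and 68.0 CPM in brain and 199, 154 and 234 CPM in muscle. Its sheep levels were 127, 135 and 255 CPM in brain and 443, 387 and 497 CPM in muscle. Its goat levels were 125, 156 and 156 CPM in brain and 348, 391 and 411 CPM in muscle. The groups did not overlap in any species. The difference over the species was 1.34 ± 0.16 (SE; edgeR adjusted p = 4.24e-07), and the values within cattle, sheep and goat, 1.35, 1.36 and 1.40, lay within 1 SE of each other.

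NDUFS7, which carries the last cluster before ubiquinone, rose from 40 ± 2.26 to 255 ± 80.1 CPM in cattle (SD, n = 3), from 104 ± 77.5 to 476 ± 20.3 in sheep and from 72.1 ± 10.7 to 387 ± 78.3 in goat. NDUFS8, another iron-sulfur subunit, was the core gene not called in sheep (log2 1.49 ± 0.61, edgeR adjusted p = 0.0827). Its sheep brain values were 65.1, 79.8 and 306 CPM and its sheep muscle values 438, 368 and 463 CPM. The groups did not overlap, but library C stood far above A and B. Without sheep brain C the difference was 2.55 (edgeR adjusted p = 1.56e-05). NDUFS1, the longest model among the cattle genes at 3338 bases, went the other way in sheep brain, at 102, 106 and 28.7 CPM. Sheep muscle held 645, 602 and 775 CPM of NDUFS1. Its sheep difference was 3.10 ± 0.53 with all libraries and 2.7 without brain C.

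The 9 accessory subunits of the matrix arm were all called higher in muscle in cattle, with a median of 1.51, and in goat, with a median of 2.07. In sheep 6 of 9 were called, with a median of 1.48, and 8 of 9 without brain C. NDUFA12 had the largest difference of the group over the species, 2.41 ± 0.23 (SE; edgeR adjusted p = 2.1e-08). In cattle NDUFA12 was at 15.1, 17.0 and 15.2 CPM in brain and 76.3, 48.7 and 77.3 CPM in muscle. In sheep it was at 24.1, 25.1 and 49.6 CPM in brain and 149, 124 and 149 CPM in muscle. In goat it was at 28.6, 47.6 and 30.7 CPM in brain and 251, 304 and 380 CPM in muscle. Each muscle library was above each brain library of its species.

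NDUFA2, a small subunit with a thioredoxin fold, had the smallest difference of this group, 1.22 ± 0.28 (SE; edgeR adjusted p = 0.000681). Cattle brain held 20.9, 25.4 and 21.1 CPM and cattle muscle 60.4, 44.3 and 55.8 CPM. Sheep brain held 34.0, 43.2 and 89.6 CPM and sheep muscle 84.3, 66.2 and 69.9 CPM. Goat brain held 32.7, 45.6 and 39.9 CPM and goat muscle 112, 132 and 254 CPM. The sheep groups overlapped because brain C exceeded every muscle library; the cattle and goat groups did not overlap. Without brain C the sheep difference was 0.93 in place of 0.40. NDUFS4 is a matrix arm subunit whose loss is known to cause severe mitochondrial disease. It was at 14.1, 15.6 and 16.2 CPM in cattle brain and 63.5, 58.3 and 70.6 CPM in cattle muscle. It was at 34.2, 36.9 and 46.0 CPM in sheep brain and 114, 105 and 109 CPM in sheep muscle. It was at 28.2, 53.3 and 30.8 CPM in goat brain and 200, 216 and 255 CPM in goat muscle. The tissues did not overlap, and NDUFS4 was called higher in muscle in all 3 species, at 2.07, 1.48 and 2.58.

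The subunits of the proximal membrane arm, which lies next to the matrix arm, had the lowest median of the role groups over the species, 1.23. In cattle 6 of 9 were called higher in muscle, with a median of 1.09, and in goat 8 of 9, with a median of 2.03. In sheep 1 of 8 was called, NDUFC2, a share near the 19.1% of all genes, with a median of 0.75; without brain C 7 of 8 were called, with a median of 1.38. This group had the largest rise in sheep brain C: its 8 matched genes summed to 415.4 and 473.4 CPM in sheep brain A and B and to 1177 in C, where sheep muscle held 1115 to 1300 CPM. NDUFA8, a protein of the intermembrane space face, had the largest difference over the species, 1.68 ± 0.26 (SE; edgeR adjusted p = 1.35e-05). NDUFA8 was at 46.2, 50.2 and 40.6 CPM in cattle brain and 141, 88.4 and 164 CPM in cattle muscle. It was at 80.3, 89.3 and 219 CPM in sheep brain and 312, 278 and 280 CPM in sheep muscle. It was at 58.8, 75.4 and 76.8 CPM in goat brain and 288, 301 and 555 CPM in goat muscle. Tissues did not overlap in any species.

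NDUFA3, a small membrane subunit, was called in no species. Its cattle values were 51.8, 61.1 and 41.3 CPM in brain and 70.2, 40.1 and 74.2 CPM in muscle. Its sheep values were 30.9, 34.7 and 137 CPM in brain and 118, 95.1 and 95.4 CPM in muscle. Its goat values were 37.6, 30.3 and 36.8 CPM in brain and 51.4, 51.0 and 91.5 CPM in muscle. The groups overlapped in cattle and sheep and not in goat. Over the species the difference was 0.56 ± 0.27 (SE), with an edgeR adjusted p of 0.0687, and it turned to -0.17 with library totals. Without sheep brain C, NDUFA3 was called higher in sheep muscle at 1.65 (edgeR adjusted p = 5.92e-05).

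NDUFA13 and NDUFS5 also belong to the proximal membrane arm, NDUFS5 on its intermembrane space face. NDUFA13 was at 32.7, 36.2 and 30.6 CPM in cattle brain and 81.4, 66.9 and 99.8 CPM in cattle muscle. It was at 56.6, 70.7 and 180 CPM in sheep brain and 194, 155 and 166 CPM in sheep muscle. It was at 51.7, 63.2 and 62.4 CPM in goat brain and 176, 201 and 312 CPM in goat muscle. The sheep tissues overlapped through brain C alone, and NDUFA13 was called in cattle and goat. Without brain C it was also called in sheep, at 1.43 in place of 0.74 (edgeR adjusted p = 0.00018). NDUFS5 was at 25.5, 29.8 and 26.4 CPM in cattle brain and 62.9, 46.8 and 63.5 CPM in cattle muscle. It was at 61.4, 82.8 and 253 CPM in sheep brain and 189, 154 and 174 CPM in sheep muscle. It was at 78.0, 100 and 100 CPM in goat brain and 239, 268 and 627 CPM in goat muscle. Here sheep brain C was above every sheep muscle library, and goat muscle C was far above A and B. Without sheep brain C the sheep difference of NDUFS5 was 1.26 in place of 0.38, and without goat muscle C the goat difference was 1.48 in place of 2.03.

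The distal membrane arm subunits, at the far end of the proton-pumping arm, were called higher in muscle for 10 of 11 genes in cattle, 5 of 9 in sheep and 8 of 8 in goat, with medians of 1.64, 1.17 and 2.25. NDUFB10, which has disulfide bonds and faces the intermembrane space, had the largest difference over the species, 2.19 ± 0.26 (SE; edgeR adjusted p = 5.51e-07). Cattle brain held 42.9, 46.1 and 39.4 CPM of NDUFB10 and cattle muscle 111, 73.3 and 164 CPM. Sheep brain held 48.9, 54.2 and 124 CPM and sheep muscle 348, 316 and 391 CPM. Goat brain held 73.8, 85.2 and 88.5 CPM and goat muscle 527, 586 and 826 CPM. The tissues did not overlap in any species, and the log2 difference was 1.44 in cattle, 2.22 in sheep and 2.97 in goat.

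NDUFB2 had the smallest difference in this group, 0.73 ± 0.16 (SE; edgeR adjusted p = 0.000612), under the 2-fold limit, and -0.05 with library totals. It was at 57.5, 60.3 and 50.4 CPM in cattle brain and 77.1, 64.4 and 91.0 CPM in cattle muscle. It was at 67.4, 66.9 and 54.8 CPM in sheep brain and 94.8, 72.7 and 92.5 CPM in sheep muscle. It was at 56.1, 65.1 and 49.9 CPM in goat brain and 134, 140 and 157 CPM in goat muscle. Every muscle library exceeded the brain libraries of its species, yet NDUFB2 was called in goat only. NDUFB7, with cattle values alone, went from 28.4 ± 2.24 to 104 ± 23.6 CPM (SD, n = 3). NDUFA1 and NDUFB11, encoded on the X chromosome in cattle, were called higher in muscle in cattle (log2 1.71 and 1.97) and in goat (2.24 and 2.31). NDUFB1 was called in cattle (2.19) and not in sheep (0.92 ± 0.36, edgeR adjusted p = 0.068), where it was called without brain C at 1.21 (0.00181).

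NDUFAB1, the mitochondrial acyl carrier protein, is a part of complex I and also serves fatty acid synthesis. It was at 33.6, 36.9 and 33.7 CPM in cattle brain and 95.9, 76.5 and 130 CPM in cattle muscle. It was at 47.6, 52.1 and 75.6 CPM in sheep brain and 244, 204 and 245 CPM in sheep muscle. It was at 67.4, 90.1 and 87.2 CPM in goat brain and 250, 277 and 336 CPM in goat muscle. The groups did not overlap, and NDUFAB1 was called in all 3 species, with 1.76 ± 0.16 over them (SE; edgeR adjusted p = 7.45e-09).

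The 4 assembly factors had uneven tissue differences. In cattle 2 of 4 were called higher in muscle, in sheep 2 of 4 and in goat 3 of 4. NDUFAF1, which works in the membrane arm assembly complex with ECSIT and ACAD9, was called in each species and had the largest difference over them, 2.04 ± 0.16 (SE; edgeR adjusted p = 1.21e-09). NDUFAF1 was at 22.7, 23.5 and 19.9 CPM in cattle brain and 69.8, 54.9 and 82.5 CPM in cattle muscle. It was at 7.43, 8.94 and 6.64 CPM in sheep brain and 48.6, 37.4 and 43.6 CPM in sheep muscle. It was at 7.80, 11.6 and 10.5 CPM in goat brain and 43.1, 41.0 and 39.8 CPM in goat muscle. Tissues were well apart throughout. NDUFAF4, which acts on the part of the matrix arm that binds ubiquinone, had the smallest difference over the species, 0.73 ± 0.19 (SE; edgeR adjusted p = 0.00187), and -0.02 with library totals. Cattle brain held 7.56, 8.11 and 8.36 CPM of NDUFAF4 and cattle muscle 16.7, 12.8 and 20 CPM. Sheep brain held 13.4, 11.7 and 16.7 CPM and sheep muscle 21.7, 17.4 and 34.9 CPM. Goat brain held 14.4, 26.5 and 14.7 CPM and goat muscle 22.9, 28.6 and 22.7 CPM. Only the goat groups overlapped, and NDUFAF4 was called in cattle alone. NDUFAF3, its partner in assembly, was called in goat, at 1.95 ± 0.29 (edgeR adjusted p = 0.00038). In sheep its difference was 0.37 with all libraries and 1.26 without brain C (edgeR adjusted p = 0.000215), which is a call.

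NDUFAF2 was the only one of the 40 genes with a fitted difference below 0 in any species. This assembly factor is a paralogue of the subunit NDUFA12. In the cattle build NDUFAF2 spans 18210359 to 18370943 on the minus strand of chromosome 20, in 4 exons. In cattle NDUFAF2 was at 4.24, 4.69 and 4.72 CPM in brain and 2.73, 3.74 and 4.44 CPM in muscle. In sheep it was at 4.51, 4.57 and 5.57 CPM in brain and 46.2, 34.2 and 32.9 CPM in muscle. In goat it was at 9.65, 7.5 and 5.04 CPM in brain and 35.2, 31.8 and 38.5 CPM in muscle. Every muscle library was above every brain library in sheep and goat, and the cattle tissues overlapped. The log2 difference was -0.32 ± 0.24 in cattle (edgeR adjusted p = 0.246), 2.95 ± 0.32 in sheep (0.000449) and 2.25 ± 0.31 in goat (0.000253). The lowest count behind these values was 91 reads for cattle, 170 for sheep and 188 for goat. The 3 models were of like length, 602, 504 and 507 bases. The sheep and goat models shared 8.33% and 25.0% of their exonic bases with a model on the opposite strand. Those neighbours were at 5.02 CPM in brain and 6.43 in muscle in sheep and at 6.94 and 7.73 in goat. Whether cattle reads of NDUFAF2 were lost to another copy or model was not tested.

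Whether the tissue difference differed between species was tested by an interaction term over the 35 matched genes. It passed an adjusted p of 0.05 for 8 of 35 genes, against 25.0% of 13083 genes, so the count is near the background. NDUFAF2 had the lowest edgeR adjusted p, 0.000113. Its difference was larger by 3.20 ± 0.40 in sheep than in cattle and by 2.60 ± 0.40 in goat than in cattle, whereas goat and sheep differed by -0.60 ± 0.39. NDUFAF2 passed under all 25 alternatives in which it was tested, with adjusted p from 2.09e-14 to 0.00338. The fit on first-pass matches alone left it out. Its sheep and goat partners came from the second pass, each with 2 shared exon lengths. Of the 8 genes that passed, only NDUFS4 was in that fit. The other genes that passed were NDUFC2, NDUFA7, NDUFC1, NDUFB2, NDUFA2, NDUFS4 and NDUFA5. NDUFC2 and NDUFA7 kept the call in 24 of 25 alternatives each, NDUFC1 in 19 of 25, NDUFB2 in 13 of 25, NDUFS4 in 9 of 26 and NDUFA2 and NDUFA5 in 8 of 25 each. Without sheep brain C 11 genes passed, against 34.3% of all genes; without goat muscle C 5 did, against 22.9%; without both 11 did, against 40.8%. With DESeq2 11 passed, against 34.9%, and with the library letter as a block 1 passed, against 15.3%. Between pairs of species, with the 2-fold minimum, 2 genes were called for sheep minus cattle (NDUFA5 and NDUFAF2), against 19.3% of all genes. For goat minus cattle 3 were called (NDUFC2, NDUFB10 and NDUFAF2), against 13.0%. For goat minus sheep 5 were called (NDUFS4, NDUFA2, NDUFA7, NDUFC1 and NDUFC2), against 7.74%. Without goat muscle C the goat minus sheep value passed for NDUFA7 (edgeR adjusted p = 0.0468) and not for the other 4, whose adjusted p was 0.0694 to 0.115. These pairs share libraries.

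**Figure D3:**
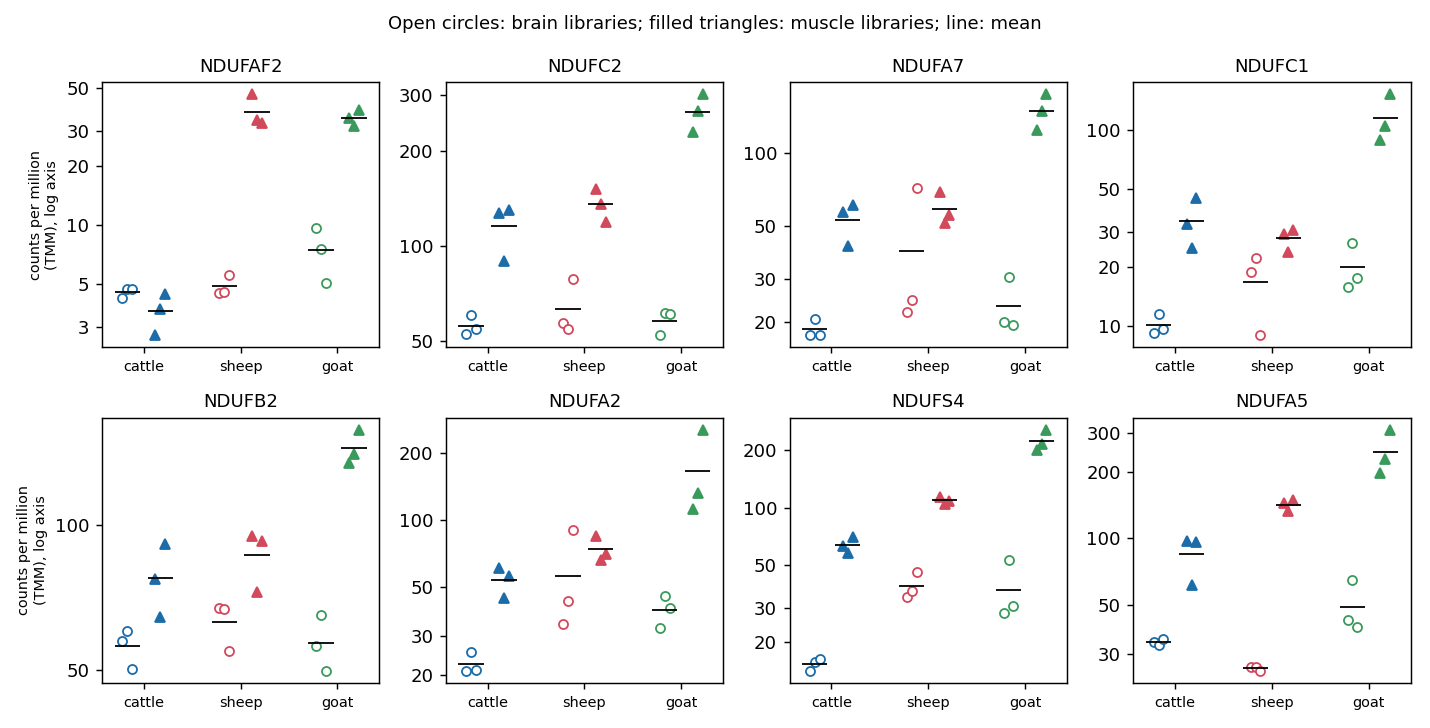
Level in CPM (TMM-scaled within species, log axis) in each library for the 8 genes whose tissue difference differed between species, with brain as open circles, muscle as filled triangles and group means as lines. NDUFAF2 is near 4 CPM in both cattle tissues and in sheep brain, and above 30 in sheep and goat muscle; in the other genes the gap between tissues is widest in goat, except for NDUFA5.

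NDUFC2 and NDUFC1 lie close together in the proximal membrane arm. NDUFC2 was at 52.3, 60.1 and 54.3 CPM in cattle brain and 127, 89.5 and 130 CPM in cattle muscle. It was at 57.0, 54.2 and 78.2 CPM in sheep brain and 151, 136 and 119 CPM in sheep muscle. It was at 51.9, 61.0 and 60.6 CPM in goat brain and 229, 268 and 302 CPM in goat muscle. The tissues did not overlap, and the gap was widest in goat. The goat difference was larger than that of cattle by 1.19 ± 0.32 (edgeR adjusted p = 0.0224) and larger than that of sheep by 1.22 ± 0.32. NDUFC1 was at 9.14, 11.5 and 9.65 CPM in cattle brain and 33.1, 25.1 and 44.9 CPM in cattle muscle. It was at 18.9, 22.3 and 8.90 CPM in sheep brain and 29.5, 23.8 and 31.0 CPM in sheep muscle. It was at 15.7, 26.4 and 17.6 CPM in goat brain and 89.8, 105 and 153 CPM in goat muscle. Sheep muscle thus stayed close above sheep brain A and B, and the goat difference exceeded that of sheep by 1.91 ± 0.48.

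NDUFA7, a matrix arm subunit, was at 17.6, 20.6 and 17.7 CPM in cattle brain and 56.8, 41.3 and 60.8 CPM in cattle muscle. It was at 21.9, 24.6 and 71.8 CPM in sheep brain and 69.0, 51.5 and 55.7 CPM in sheep muscle. It was at 20, 30.6 and 19.4 CPM in goat brain and 125, 150 and 175 CPM in goat muscle. Sheep brain C was above all sheep muscle libraries, and the goat tissues did not overlap. The sheep difference was 0.58 with brain C and 1.34 without it (edgeR adjusted p = 0.000294). The goat difference exceeded that of sheep by 2.24 ± 0.54 with all libraries and by 1.44 ± 0.33 without sheep brain C. NDUFB2 and NDUFA2, given above, also had their largest difference in goat. NDUFA5, a subunit of the ubiquinone-binding part, went from 33.9 ± 1.08 to 84.6 ± 20.2 CPM in cattle, from 25.8 ± 0.565 to 142 ± 8.60 in sheep and from 48.8 ± 13.5 to 245 ± 57.6 in goat (SD, n = 3, brain to muscle). Its difference was larger than in cattle by 1.07 ± 0.36 in sheep and by 1.05 ± 0.36 in goat.

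Over the 35 matched genes, the largest log2 difference of the 3 species was that of goat in 28 genes, of sheep in 5 and of cattle in 2. The smallest was that of sheep in 18, of cattle in 16 and of goat in 1. This tally was not made over all genes. The median interaction, goat minus cattle, was 0.71 over the 35 genes and 0.02 over all genes tested. It was 0.84 and 0.06 for goat minus sheep, and -0.24 and -0.06 for sheep minus cattle. The order of sheep and cattle rested on sheep brain C: without it sheep had the smallest difference in 7 genes and cattle in 26, and goat had the largest in 21. Without goat muscle C goat had the largest in 25, and without both libraries in 19. In goat muscle C, 31 of 37 genes exceeded both other goat muscle libraries, against 42.2% of all genes, with a median log2 difference of 0.48. That library also held 65850 CPM of 4 fast-fibre genes, against 35500 and 32890 in goat muscle A and B, and 14860 CPM of 7 slow-fibre genes, against 44730 and 46570. In cattle muscle B, 39 of 40 genes lay below both other cattle muscle libraries, against 30.3% of all genes, with a median of -0.56. It held 20510 CPM of slow-fibre and 47070 of fast-fibre genes, against 60770 and 25100 in A and 32390 and 38850 in C. The part of fibre type in these levels was not tested.

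Comparing levels between species needs a correction for model length, and the counts of calls changed with it. With counts corrected for each species' own model length, 13 of 35 genes were called between cattle and sheep brain, 1 higher in cattle and 12 in sheep, against 9.15% and 16.9% of all 13083 genes. Between cattle and goat brain 17 were called, 4 higher in cattle and 13 in goat, against 11.1% and 12.9%. Between sheep and goat brain 13 were called, 5 higher in sheep and 8 in goat, against 12.3% and 6.08%. In muscle 12 were called between cattle and sheep, 1 and 11, against 13.1% and 16.6%. Between cattle and goat muscle 19 were called, 1 and 18, against 14.8% and 19.4%. Between sheep and goat muscle 22 were called, 5 and 17, against 11.1% and 12.6%. Without the length correction the counts were 8, 3 and 2 in brain and 4, 17 and 8 in muscle, in the same order, against 29.9%, 20.4%, 18.3%, 30.5%, 34.1% and 20.7% of all genes. The sign of the difference changed in 9 to 12 of the 35 genes of each comparison.

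**Figure D4:**
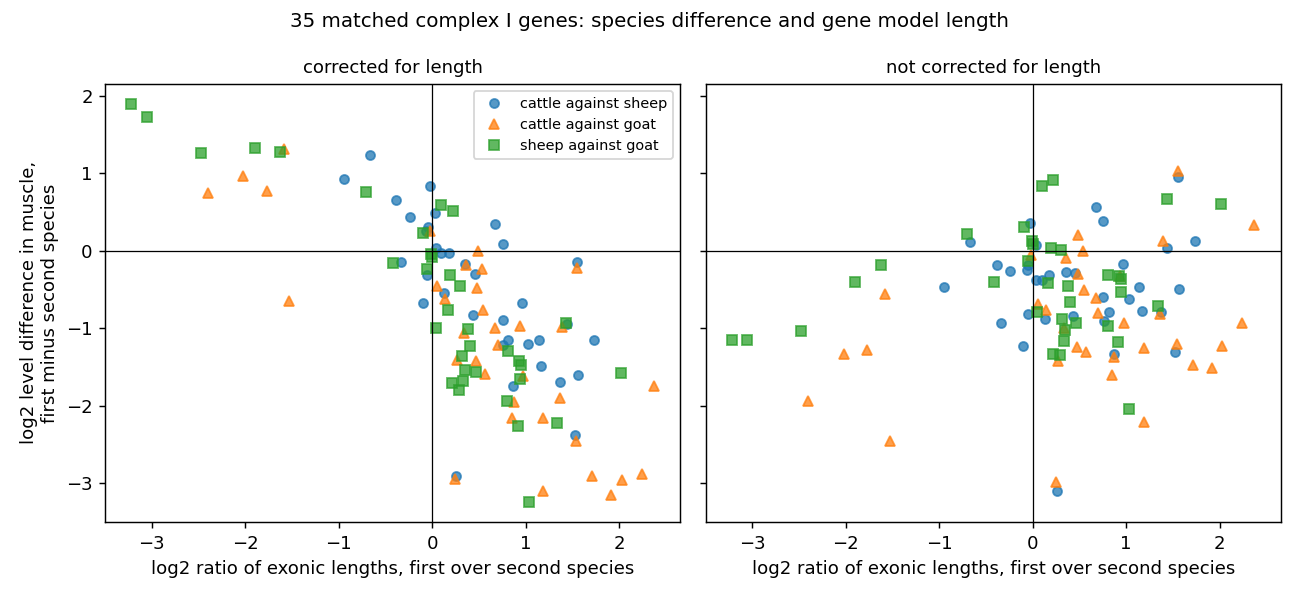
Log2 level difference in muscle between species (vertical) against the log2 ratio of the exonic lengths of the gene models (horizontal) for 35 genes, with the length correction (left) and without it (right); each symbol is a gene in 1 of 3 species pairs. The corrected differences fall with the length ratio, and the uncorrected ones show no such slope.

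The corrected difference fell as the length ratio rose. Over the 35 genes, which share libraries, the correlation of the log2 length ratio with the corrected log2 difference was -0.69 to -0.90 by Pearson's r and -0.67 to -0.82 by Spearman's rho in the 6 comparisons. With uncorrected differences Pearson's r was -0.07 to 0.37 and Spearman's rho -0.23 to 0.29. The length enters the corrected value by construction. Whether the longer models are in fact transcribed over their length was not tested.

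NDUFA12 shows the size of the problem. With the length correction its sheep brain level exceeded that of goat by 3.07 ± 0.34 (SE; edgeR adjusted p = 8.7e-06) and its cattle brain level that of goat by 1.83 ± 0.32 (0.000458). Without it the values were -0.0038 and -0.85. The goat model has 5017 bases and the sheep model 540. NDUFS5 behaved alike in sheep against goat brain, with 3.53 ± 0.50 corrected and 0.63 uncorrected, with models of 506 and 4195 bases. NDUFA8 had 2.74 ± 0.40 corrected and 0.99 uncorrected in the same comparison, with models of 783 and 2914 bases. In all 3 genes this difference was called with the correction and not without it, where the edgeR adjusted p was 0.996, 0.345 and 0.0687.

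Calls that held in the same direction with and without the correction were fewer. The share of all genes called both ways was not computed. The counts of this paragraph thus have no background beside them and are not read as a result about complex I. In brain they were 5 genes between cattle and sheep, all higher in sheep (NDUFS7, NDUFS4, NDUFA13, NDUFS5 and NDUFB8), and 0 in either comparison with goat. In muscle 3 genes held between cattle and sheep, all higher in sheep (NDUFS5, NDUFB10 and NDUFAF2), 12 between cattle and goat, all higher in goat, and 6 between sheep and goat, all higher in goat. The 6 were NDUFS4, NDUFA2, NDUFA7, NDUFC1, NDUFB4 and NDUFB5. The 12 were NDUFS4, NDUFA2, NDUFA5, NDUFA6, NDUFA7, NDUFA13, NDUFC1, NDUFB4, NDUFB6, NDUFB10, NDUFAB1 and NDUFAF2. These lists changed when single libraries were left out. Without sheep brain C, NDUFS5 was the only one of the 5 brain genes that still held both ways. Without goat muscle C, 7 of the 12 and 2 of the 6 muscle genes held (NDUFS4, NDUFA5, NDUFC1, NDUFB6, NDUFB10, NDUFAB1 and NDUFAF2, and NDUFC1 and NDUFB5). Without cattle muscle B, 9 of the 12 held, and 2 of the 3 between cattle and sheep muscle (NDUFB10 and NDUFAF2). Without sheep brain C, 8 genes were called between cattle and sheep brain with the correction in place of 13, and without cattle muscle B, 7 were called between cattle and sheep muscle in place of 12.

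NDUFAF2 in muscle differed between cattle and the other species with and without the correction. Corrected to CPM per kilobase of model, it was at 8.86 ± 2.11 in cattle, 66.6 ± 13.4 in sheep and 68.5 ± 11 in goat muscle (SD, n = 3), and at 11.2 ± 0.649, 9.13 ± 1.30 and 14.2 ± 4.50 in brain. Cattle muscle was lower than sheep muscle by a log2 difference of -2.91 ± 0.30 (SE; edgeR adjusted p = 2.26e-06) and lower than goat muscle by -2.95 ± 0.30 (1.44e-06). Uncorrected, these were -3.11 and -2.99. No brain comparison of NDUFAF2 was called. NDUFB10 in muscle, at 141 ± 55.8, 471 ± 50.2 and 1210 ± 389 CPM per kilobase in cattle, sheep and goat, was lower in cattle than in goat by -3.11 ± 0.38 corrected and -2.21 uncorrected. NDUFS4 in muscle was lower in cattle than in goat by -3.15 ± 0.27 corrected and -1.52 uncorrected. NDUFA7 was lower there by -2.96 ± 0.40 corrected and -1.23 uncorrected. NDUFC1 in muscle was lower in sheep than in goat by -3.25 ± 0.37 corrected and -2.04 uncorrected, NDUFA2 by -2.27 ± 0.38 and -1.18, and NDUFB2 by -2.22 ± 0.22 and -0.72. NDUFS5 was lower in cattle than in sheep by -3.17 ± 0.49 corrected and -2.08 uncorrected in brain and by -2.38 ± 0.47 and -1.31 in muscle. In brain NDUFA13 was lower in cattle than in sheep by -2.36 ± 0.38 corrected and -1.42 uncorrected, and NDUFS4 by -2.27 ± 0.26 and -1.14. NDUFS4 was lower in cattle than in goat brain by -2.60 ± 0.26 corrected and -0.97 uncorrected, and NDUFC1 by -2.08 ± 0.35 and -0.66.

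Within a species, levels per kilobase ranked the genes as follows. NDUFAF1 was the lowest of the 35 matched genes in cattle brain (10.4 ± 0.953 CPM per kilobase; SD, n = 3) and in sheep brain (6.77 ± 0.943). NDUFAF2 was the lowest in cattle muscle (8.86 ± 2.11) and NDUFAF4 in sheep muscle (26.4 ± 9.71) and goat muscle (36.1 ± 4.34). NDUFAF3 was at 56.1 ± 6.55 in cattle brain, the rank of 19 from the top. In goat brain NDUFA12 was the lowest (6.89 ± 2.04), on its model of 5017 bases. The highest in muscle were NDUFV2 in cattle (470 ± 98.6), NDUFS7 in sheep (587 ± 28.2) and NDUFB10 in goat (1210 ± 389). In brain they were NDUFA3 in cattle (212 ± 41.5), NDUFS5 in sheep (248 ± 202) and NDUFB2 in goat (169 ± 23.8). The SD of the sheep brain value is nearly as large as its mean, and in goat brain NDUFAB1 (165 ± 24.7) did not differ from NDUFB2 beyond the spread. NDUFS5 led in sheep brain through library C, at 480 against 363 for NDUFB8. In sheep brain A and B NDUFB8 was higher, at 156 and 196 against 113 and 152 for NDUFS5.

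Complex I genes outside the list and the other respiratory complexes were read the same way, from lists drawn up for this comparison. Of 13 further complex I genes, 6 were called higher in muscle in cattle, 3 in sheep and 6 in goat, and 0 higher in brain, against 25.3%, 19.1% and 23.2% of all genes called higher in muscle. The sheep count is near that background. Over the species 5 of 13 were called, with a median of 0.93, against 22.1% of all genes called higher in muscle and 32.0% higher in brain. ECSIT, the partner of NDUFAF1, had 3.03 ± 0.21 (SE; edgeR adjusted p = 2.8e-10). ACAD9, the other partner, had -0.30 ± 0.20 (edgeR adjusted p = 0.181). Over the species 3 of 4 complex II genes, 4 of 5 complex III genes, 13 of 14 ATP synthase genes and 9 of 11 citrate cycle and outer membrane genes were called higher in muscle and 0 of each higher in brain, with medians of 2.47, 1.84, 1.57 and 1.74. SDHC (2.68 ± 0.13) and SDHD (2.82 ± 0.15), the membrane anchors of complex II, had the lowest adjusted p of their list, as did UQCRB (2.74 ± 0.20) and UQCRC2 (2.32 ± 0.18) of complex III, ATP5PB (1.91 ± 0.15) and ATP5MC2 (2.05 ± 0.17) of ATP synthase, and MDH2 (2.41 ± 0.17) and SUCLG1 (2.26 ± 0.18) of the citrate cycle. In complex IV 6 of 9 genes were called higher in muscle and 2 higher in brain. The 2 were COX6A1 (-3.23 ± 0.23) and COX7A2 (-1.49 ± 0.27). COX7A2 was not called in goat, at 41.1 ± 4.02 CPM in brain and 30.8 ± 8.91 in muscle (SD, n = 3). Its log2 difference there was -0.41 ± 0.28 (SE, edgeR adjusted p = 0.221), and its interaction passed (edgeR adjusted p = 0.00893). The muscle form COX6A2 had 8.86 ± 0.95 in sheep and 11.19 ± 0.58 in goat (SE); its cattle model held almost no counts in either tissue and was not tested within cattle. Of 9 regulators of mitochondrial genes 4 were called higher in muscle and 0 higher in brain, with a median of 0.84. TFB2M, a mitochondrial transcription factor, had 1.81 ± 0.18 and the nuclear receptor ESRRA 1.99 ± 0.21.

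**Figure D5:**
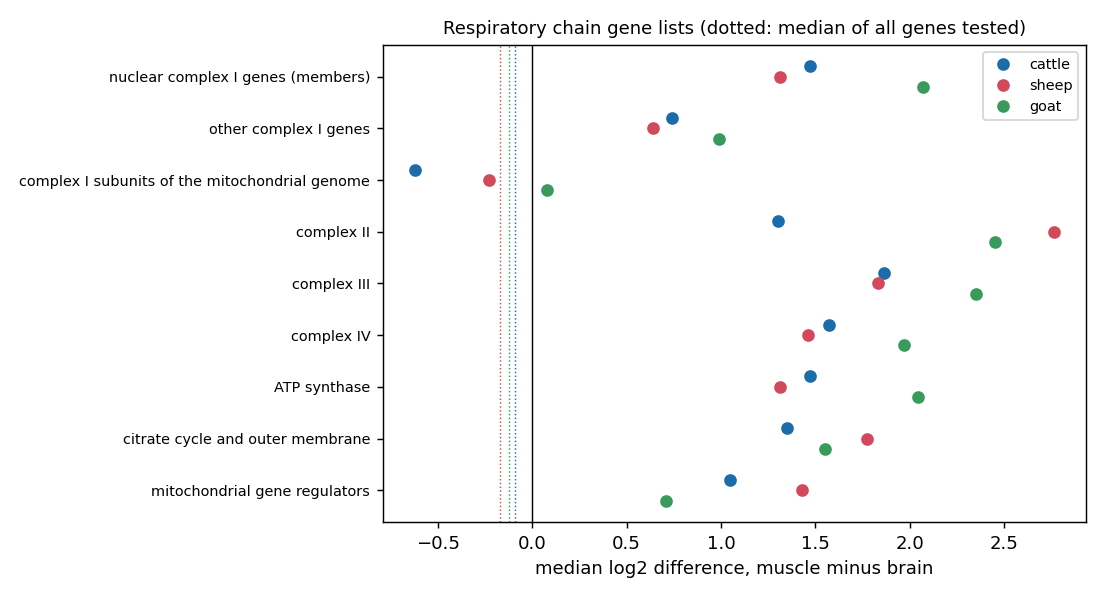
Median log2 difference of muscle minus brain of the 40 nuclear complex I genes and of 8 other lists in cattle, sheep and goat, with the median of all genes tested in each species as dotted lines. Nuclear lists lie right of 0 in all 3 species, and the complex I genes of the mitochondrial genome lie between -0.62 and 0.08.

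The complex I subunits of the mitochondrial genome did not move with the nuclear ones. In cattle 0 of 7, in goat 0 of 7 and in sheep 0 of 6 were called higher in muscle. The shares of all genes were 25.3%, 23.2% and 19.1%. ND1 was called higher in brain in sheep at -1.64 ± 0.54 (SE; edgeR adjusted p = 0.0424). By the edgeR adjusted p alone, ND1 (0.0262), ND2 (0.0127), ND4L (0.0284) and ND5 (0.0292) were lower in cattle muscle, each by less than 2-fold. Sheep ND5 and ND6 were near the floor, at 4.61 and 1.34 CPM in brain and 8.97 and 1.31 in muscle. Over the species 0 of 6 were called, against 22.1% of all genes called higher in muscle and 32.0% higher in brain. The median was -0.22, and ND1 (-0.80 ± 0.36, edgeR adjusted p = 0.0558) and ND2 (-0.65 ± 0.47, 0.225) had the lowest adjusted p. The 6 matched genes summed to 56890, 63950 and 51470 CPM in cattle brain and 39230, 37560 and 32680 CPM in cattle muscle. In sheep they summed to 5844, 4553 and 3771 CPM in brain and 5922, 5980 and 4384 CPM in muscle. In goat they summed to 15300, 14500 and 8610 CPM in brain and 6496, 8030 and 18190 CPM in muscle. Cattle muscle lay below cattle brain, and the sheep and goat tissues overlapped. The make-up of the sum also differed: ND4 held 26.6% of it in cattle and 94.8% in sheep, and ND2 and ND4 held 48.6% and 43.0% in goat. Sheep ND1 was at 39.9 CPM on average where cattle ND1 was at 12900. How reads of the mitochondrial genome were placed and counted in each species is not given in the sources used here, so its levels are not compared between species.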

How the data were processed

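Poly(A)-selected RNA of brain and muscle was sequenced from 3 species, with 3 libraries per group. Per the submitters' processing notes, the authors used Trimmomatic 0.39, STAR 2.7.6 and featureCounts, and ARS-UCD1.2 is the only build named; no source used here gives the sheep and goat builds, strandedness or the handling of reads with several placements. The deposited values are raw read counts per gene, and the deposited length column, which is a length in bases, counts each model's exonic bases. Cattle genes were named from a RefSeq table on a later build (ARS-UCD2.0), where the overlap of both spans was 0.5 or more of the length they cover together. NDUFV1 and NDUFAF1 (0.467 and 0.472) needed a looser second step. A sheep or goat partner had 2 or more pairs of adjacent exons of equal length in common with the cattle gene or, in a second pass, a shared exon length, the matching strand and a place within 15 genes of the position given by matched neighbours. This gave 14735 genes in 3 species, of which 10055 came from the first pass, and 12 of the 35 matched complex I genes did. The matching rule was adjusted while the exon structures of the complex I genes were in view, before their counts were looked at. The members and lists were chosen with earlier results of these data known.

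Tests used edgeR 4.0.16 (quasi-likelihood, robust, filterByExpr, TMM) in R 4.3.3, within each species and, for matched genes, in 1 model with model length as an offset. A call needs an adjusted p below 0.05 and a 2-fold difference, except the interaction, which needs the p alone. The fits were tested on simulated data. DESeq2 1.42.0, limma 3.58.1, other scalings, filters and matches, a block on the library letter and leaving out each library were run as alternatives. Leaving out sheep brain C and goat muscle C together, and leaving out sheep brain C, goat muscle C or cattle muscle B from the fit without length offset, were added after seeing the data. By the rule for named genes, values per library are given for the genes of largest and smallest tissue difference in each role group, those of lowest interaction p and the called genes of largest species difference. For the other lists it names up to 2 genes of lowest adjusted p, of which 1 is not reported here. Replicate libraries differed by more than counting noise in every group. At these depths the spread between libraries, not counting, sets the precision.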

Additional observations from a re-analysis of the deposited data

Results flagged for a closer look

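The tissue difference differed between species for 8 of the 35 matched genes by the interaction term of edgeR. The adjusted p was 0.000113 for NDUFAF2, 0.0151 for NDUFC2, 0.0178 for NDUFA7, 0.024 for NDUFC1, 0.036 for NDUFB2, 0.0429 for NDUFA2, 0.046 for NDUFS4 and 0.0492 for NDUFA5. Of all 13083 genes 25.0% passed, so this many of 35 is near the background. Groups of 3 libraries are too small for a test of single outlying libraries.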

How the results depend on the processing

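With library totals only, the counts of genes called fell to 13 in cattle, 11 in sheep and 12 over the species, and the tissue difference over the species turned to -0.17 for NDUFA3, -0.02 for NDUFAF4 and -0.05 for NDUFB2. With first-pass matches only, which left 12 of the 35 genes, 10 were called over the species and 1 in the interaction; for cattle against sheep, cattle against goat and sheep against goat, 5, 5 and 4 were called in brain and 4, 5 and 5 in muscle. Without the length correction 8, 3 and 2 were called in brain and, for cattle against sheep and sheep against goat, 4 and 8 in muscle, and NDUFA12 turned to -0.85 (cattle against goat) and -0.0038 (sheep against goat) in brain. Without the correction and without sheep brain C 2, 4 and 1 were called in brain and, for cattle against sheep and sheep against goat, 4 and 9 in muscle, NDUFA12 was at -0.85 and -0.44 and NDUFS5 turned to -0.27 (sheep against goat brain). Without the correction and goat muscle C these were 8, 3 and 2 in brain and 4, 11 and 2 in muscle, and without it and cattle muscle B 8, 3 and 2 in brain and 4 and 8 in muscle (cattle against sheep, sheep against goat), with NDUFA12 at -0.85 in both and at -0.0028 and -0.0045. Leaving out sheep brain C and goat muscle C together left 8 calls between cattle and sheep brain. The cause of these changes was not tested, except that fewer genes were tested with first-pass matches. Leaving out 1 library gave 30 to 36 calls in cattle, 16 to 31 in sheep (31 without sheep brain C), 34 to 36 in goat, 27 to 32 over the species and 3 to 13 in the interaction (13 without sheep brain A, 3 without goat brain A, goat brain C or sheep muscle B); between species it gave 8 to 15 (8 without sheep brain C), 12 to 19 and 10 to 17 in brain and 7 to 14 (7 without cattle muscle B), 18 to 21 and 19 to 22 in muscle. RLE scaling, DESeq2, limma-voom, no count filter and the adjusted p alone kept every count within 1.5 times. The share of all genes called is not set beside the counts of this paragraph, and it also moved with the setting. In the interaction it was 22.9% without goat muscle C and 34.3% without sheep brain C. Changes in these counts are therefore not read as a result about the complex I genes.

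Whether the library letters pair the tissues is not given, and correlations over 3 libraries per tissue cannot decide it. The correlations of same-lettered deviations were 0.00592, 0.0132 and -0.0576 in cattle. They were 0.117, 0.102 and 0.0866 in sheep and 0.198, -0.197 and -0.0406 in goat. Sheep was the only species in which every library correlated best with its own letter. With the letter as a replicate block the counts were 34, 21 and 35 in cattle, sheep and goat and 30 over the species. The share of all genes called with the block was not computed for these counts. They are therefore not read as a result about the complex I genes. In the interaction 1 gene passed (NDUFAF2), against 15.3% of all genes. For species against species this block could not be fitted, since each letter belongs to 1 species.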

Other observations

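In sheep brain C and goat muscle C, NDUFS1 went against most complex I genes. In sheep brain C it was lower than in A and B by a log2 difference of -1.84, while the median of 37 complex I genes was 0.96 and the highest, NDUFS8, was 2.07. In goat muscle C it was at 150 CPM, against 458 and 550 in A and B, a log2 difference of -1.75, while the median was 0.48 and the highest, NDUFS6, was 1.32. NDUFS1 has the longest model of the 40 genes in cattle (3338 bases) and sheep (2464 bases). In sheep brain C genes under 1000 bases had a median of 0.28 and genes over 3000 bases -0.55; in goat muscle C these were 0.13 and 0.00. The cause was not tested.

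Cattle chromosome 7 holds 6 of the 40 genes, among them NDUFS7 and NDUFA2, and NDUFV1 (45455657 to 45468982) and NDUFS8 (45559236 to 45563283) lie close together on the plus strand of chromosome 29. These 2 neighbours had like differences in cattle (1.35 ± 0.19 and 1.40 ± 0.22; SE) and unlike ones in goat (1.40 ± 0.23 and 2.18 ± 0.34; 1.38 and 1.77 without goat muscle C), a contrast that was not tested.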
